A study of Mustela putorius furo with 9 samples.

Results

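RNA sequencing libraries titled PBS1 were compared with libraries titled Ep2, both from NBL-7 cells, which the labels call ferret lung epithelial cells. The treatment label of the PBS1 libraries gives particulate matter at 500 µg/mL, although PBS commonly stands for a buffer given as a vehicle, so title and label of this group disagree. The Ep2 libraries carry the label 250 µg/mL. Each group holds 3 libraries, 6 of the 9 in the study, and the other 3, titled Ep1, are labelled untreated. Groups are named here by title. If the labels hold, the comparison sets the higher dose against the lower; if the title PBS1 names a vehicle, it sets a control against 250 µg/mL. The files do not settle which. All libraries come from 1 line kept in DMEM with FBS. The sources used here give neither the exposure time nor the origin of the particles. They also do not say whether replicate libraries were grown as separate cultures, so a p-value here reflects the spread among the libraries alone, and that spread may be technical. NBL-7 is known as well as the name of a line from mink lung, and the species of these cells was not examined.

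Of 28494 genes in the deposited table, 11840 had at least 1 FPKM (fragments normalized for gene length and library depth) in at least 3 of the 9 libraries and were tested. Each library held 12469849 to 13533480 fragments. In a fit of log2(FPKM + 1) with limma, 5875 genes passed an adjusted p of 0.05, which is 49.6% of those tested. They split almost evenly, with 3013 (25.4%) higher in PBS1 and 2862 (24.2%) lower. Differences were mostly small, with a median fold of 1.30 among the genes called. At least 1.5-fold differences were called for 685 genes higher and 230 lower, and a log2 difference of at least 1 for 131 higher (1.11%) and 27 lower (0.228%). A difference is always PBS1 minus Ep2 below, on the log2(FPKM + 1) scale, where the added 1 shrinks the changes of low genes. Because so many genes passed, each gene group is read against these shares and against the median of all tested genes, 0.00 on the log2 scale. In 85.7% of the called genes the Ep1 mean lay between the PBS1 and Ep2 means. These genes were picked for a gap between PBS1 and Ep2, which by itself favours an Ep1 mean inside it. No share over all tested genes is given, so this value does not show that Ep1 was intermediate. The Ep1 libraries also differed: on principal component 1, the main axis of variation among libraries, Ep1_1 lay at -14.75, beside column PBS3 at -15.27. Ep1_2 and Ep1_3 lay at -0.37 and 2.89, and the Ep2 libraries at 15.34 to 24.68.

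Airway epithelium is the first living layer that inhaled particles meet. Particulate matter carries metals and organic compounds, and the known cell responses include oxidative stress, the aryl hydrocarbon receptor pathway and inflammatory signalling. Cholesterol and fatty acid synthesis are driven by the SREBP transcription factors, which are cleaved and enter the nucleus when membrane sterol is low. The liver X receptors, sensors of oxysterols, act in the other direction and drive the sterol exporters. Sterol and fatty acid synthesis both consume NADPH, much of which comes from the pentose phosphate pathway.

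The epithelial label was checked against marker genes. Of 6 general epithelial markers, KRT7, KRT8 and KRT19 passed the filter and 3 stayed under 1 FPKM in every library, among them EPCAM at 0 throughout. KRT7, a keratin of simple epithelia, measured 1126, 1079 and 943 FPKM in columns PBS1, PBS2 and PBS3 and 764, 922 and 931 FPKM in Ep2. Of 14 lung epithelial markers in the table, 9 stayed under 1 FPKM in every library and 4 (SFTPC, SCGB3A1, SCGB3A2 and AQP5) were at 0 throughout. The lung lineage factor NKX2-1 was present and rose, from 11.3, 8.72 and 8.05 FPKM in Ep2 to 15, 15.3 and 14.6 FPKM in PBS1 (log2 difference 0.63, SE 0.11, adjusted p = 0.00122). Summed levels of 9 leukocyte markers were 1.65 to 2.21 FPKM in PBS1 against 1.59 to 2.80 FPKM in Ep2, and those of 8 fibroblast markers 1.98 to 3.73 and 2.51 to 3.24 FPKM. The summed level of the 7 ciliated cell markers ranged from 4.46 to 5.22 FPKM in PBS1 against from 4.68 to 5.18 FPKM in Ep2. The library sums of these other cell types overlapped between the groups. Those of the epithelial markers did not: the 6 general markers summed to 1355 to 1585 FPKM in PBS1 against 1061 to 1236 FPKM in Ep2, and the 14 lung epithelial markers to 43.95 to 45.28 FPKM against 38.68 to 42.71 FPKM. Separation was common, since 60.3% of single tested genes also did not overlap between the groups. The general sum came almost wholly from KRT7, KRT8 and KRT19. Of the 4 lung epithelial markers tested, 1 was called, NKX2-1, so the sums do not show a shift of epithelial markers as a set. The part of these sums in other differences was not tested. Endothelial markers summed to 15.8 to 17.9 FPKM in PBS1 against 14.1 to 16.3 FPKM in Ep2, and of the 6 basal and goblet cell markers in the table, 5 were at 0 in all libraries. In bulk RNA, fewer cells of a type and less RNA per cell cannot be told apart.

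Most measured genes of sterol synthesis were higher in PBS1. Of 9 measured genes of the mevalonate part, 8 rose and 0 fell, with a median log2 difference of 0.96 against 0.00 over all genes. MVD, which decarboxylates mevalonate diphosphate to the first isoprene unit, measured 97.3, 104 and 97.8 FPKM in PBS1 against 50.1, 35 and 31.8 FPKM in Ep2 (log2 difference 1.36, SE 0.14, adjusted p = 0.000298). The 3 Ep1 libraries, at 77.3, 63.9 and 62.4 FPKM, lay between both groups. FDPS, the farnesyl diphosphate synthase, measured 206, 230 and 261 FPKM in PBS1 against 146, 79.0 and 101 FPKM in Ep2, a difference of 1.13 (SE 0.18). HMGCS1, which makes HMG-CoA, measured 165, 197 and 222 FPKM against 147, 67.8 and 82.1 FPKM. Its groups did not overlap, but Ep2_1 lay close to the lowest PBS1 column, a position this library also held for other sterol genes. The kinases MVK and PMVK rose by 1.07 (SE 0.14) and 0.96 (SE 0.17), and ACAT2, the cytosolic thiolase at the entry, by 0.65 (SE 0.12). GGPS1, which leads isoprenoids away from sterols towards protein prenylation, was the member not called: it measured 2.34, 2.11 and 2.68 FPKM in PBS1 against 2.76, 4.39 and 3.48 FPKM in Ep2 (difference -0.42, adjusted p = 0.0568). GGPS1 passed as lower at an unadjusted p under 0.05, in limma voom, with quantile normalization, with only the 6 libraries compared, with only genes longer than 2000 bases, and in 3 of the fits that left out a library (Ep1_1, Ep1_3 or Ep2_1). With single libraries left out, 6 to 8 members were called higher. FDFT1, the squalene synthase at the branch to sterols, lost its call in 6 of the 9 such fits; its difference was 0.51 (SE 0.19) in the full fit and 0.32 without Ep2_2.

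Of 10 genes that turn squalene into cholesterol, 7 rose and 0 fell (median 0.57). LSS, which closes the sterol rings, measured 55.9, 60.3 and 59.4 FPKM in PBS1 against 32.7, 22.5 and 22.7 FPKM in Ep2 (difference 1.16, SE 0.13, adjusted p = 0.00036). NSDHL, a demethylating dehydrogenase, rose by 0.72 (SE 0.12), DHCR7, the last reductase, by 0.75 (SE 0.12) and the isomerase EBP by 0.57 (SE 0.14). The squalene epoxidase SQLE passed with a smaller difference of 0.35 (SE 0.11), and its call was lost without any of 4 single libraries, at an adjusted p of up to 0.0838 and a difference of 0.21 without Ep2_2. SC5D and LBR, a desaturase and a sterol reductase of the same arm, were not called, with differences of -0.10 and -0.11. For this group and the fatty acid synthesis, pentose phosphate and glycolysis groups below, the count of 0 lower members was also 0 at an unadjusted p under 0.05 and in limma voom.

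Among 17 genes of sterol sensing and uptake, 7 rose and 2 fell (median 0.21, and 0.13 without Ep2_2 or with quantile normalization). The 2 SREBP genes rose by similar amounts: SREBF2, which favours sterol genes, measured 70.7, 75.2 and 73.0 FPKM in PBS1 against 63.2, 41.8 and 44.5 FPKM in Ep2 (difference 0.57, SE 0.12), and SREBF1, which favours fatty acid genes, differed by 0.51 (SE 0.09). SCAP, the escort that carries SREBP to the Golgi, rose by 0.23 (SE 0.06), whereas MBTPS2, the protease that makes the second cut, fell by 0.44 on the log2 scale (SE 0.06), from 19.7, 20.6 and 19.4 FPKM in Ep2 to 14.1, 15.02 and 14 FPKM in PBS1. The count of lower members was 1 in 7 of the 9 fits without a single library (every PBS1 column, every Ep2 library and Ep1_2). INSIG1, which holds SCAP in the endoplasmic reticulum, was not called (difference 0.21, adjusted p = 0.179).

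The genes of sterol export split. Of 8 tested, 3 fell and 3 rose. ABCA1, the exporter that loads apolipoprotein particles, measured 2.40, 2.36 and 2.28 FPKM in PBS1 against 3.67, 5.64 and 4.96 FPKM in Ep2 (difference -0.77, SE 0.12, adjusted p = 0.000883). ABCG1, a second exporter, measured 2.46, 3.14 and 2.71 FPKM against 5.37, 6.03 and 5.67 FPKM (difference -0.83, SE 0.09), and SOAT1, which stores cholesterol as esters, fell by 0.32 (SE 0.08). The liver X receptor gene NR1H2 and its partners RXRA and RXRB moved the other way, with differences of 0.47 (SE 0.10), 0.49 (SE 0.09) and 0.57 (SE 0.10). NR1H3, the other liver X receptor gene, stood near the filter, at 0.964 to 0.993 FPKM in the PBS1 columns.

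Of 13 fatty acid synthesis genes, 8 rose and 0 fell (median 0.37). SLC25A1, which exports citrate from mitochondria, measured 92.9, 100 and 101 FPKM in PBS1 against 64.8, 43.1 and 45.5 FPKM in Ep2 (difference 0.95, SE 0.14, adjusted p = 0.000624). The following steps were higher too. ACLY, which splits citrate to acetyl-CoA, measured 387, 438 and 494 FPKM against 313, 215 and 232 FPKM. ACACA, which makes malonyl-CoA, differed by 0.30 (SE 0.08). FASN, which builds palmitate, measured 406, 487 and 538 FPKM against 360, 192 and 212 FPKM (difference 0.95, SE 0.20), and its Ep1 values of 517, 420 and 497 FPKM were in the range of PBS1. Among desaturases, FADS2 rose by 0.79 (SE 0.14), SCD by 0.49 (SE 0.09) and FADS1 by 0.37 (SE 0.10). The elongases ELOVL1, ELOVL5 and ELOVL6 were not called, with differences of -0.04, -0.18 and 0.06. ACSS2, which makes acetyl-CoA from acetate, lost its call without any of 3 single libraries (adjusted p = 0.064 without Ep2_3).

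**Figure D1:**
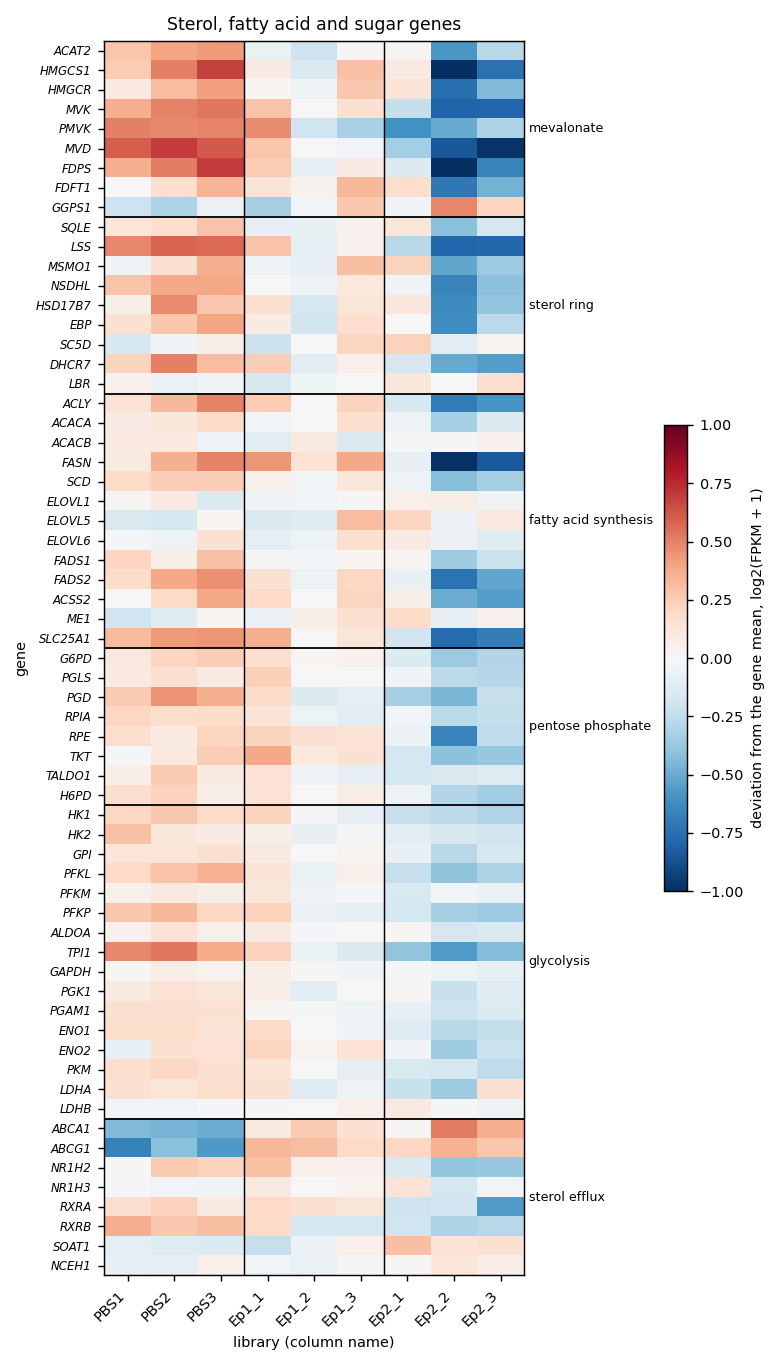
Deviation of log2(FPKM + 1) from the mean of the gene over the 9 libraries, for 63 genes of sterol, fatty acid and sugar pathways (rows, grouped by list) in each library (columns, PBS1 at the left, Ep1 in the middle, Ep2 at the right), with the colour scale cut at 1 in either direction. Sterol genes are red in the PBS columns and blue in Ep2_2 and Ep2_3, Ep2_1 is paler, and ABCA1 and ABCG1 show the opposite colours.

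Fatty acid oxidation did not move one way. Of 18 genes, 7 rose and 4 fell (median 0.13), but only 4 rose without column PBS3 or Ep2_3. CPT1A, the carnitine transferase that admits fatty acids to mitochondria, measured 18.9, 18.1 and 18.5 FPKM in PBS1 against 14.2, 14.1 and 14.6 FPKM in Ep2 (difference 0.35, SE 0.06, adjusted p = 0.000939). The short-chain dehydrogenase ACADS rose by 0.43 (SE 0.10), whereas the medium-chain dehydrogenase ACADM fell by 0.28 (SE 0.06) and HADHB, a subunit of the trifunctional protein, by 0.29 (SE 0.05). With the trend on gene length removed, 4 rose and 4 fell.

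The sugar pathways that feed lipid synthesis stood higher in PBS1. All 8 genes of the pentose phosphate pathway rose, in the full fit and in each of the 9 fits without a single library, with a median of 0.41. PGD, the second NADPH-yielding step, measured 121, 138 and 129 FPKM in PBS1 against 79.4, 72.9 and 85.3 FPKM in Ep2 (difference 0.70, SE 0.09, adjusted p = 0.000468). PGLS, the lactonase between both NADPH steps, rose by 0.31 (SE 0.08), and H6PD, which runs the first 2 steps inside the endoplasmic reticulum, by 0.39 (SE 0.09). In the branch that rebuilds sugars, RPIA rose by 0.37 (SE 0.08), TALDO1 by 0.29 (SE 0.07) and RPE by 0.48 (SE 0.13, and 0.31 without Ep2_2). TKT, the transketolase, was the most abundant of them, at 1273, 1376 and 1527 FPKM in PBS1 against 1145, 966 and 987 FPKM in Ep2. ME1, the malic enzyme and another source of NADPH, was not called (difference -0.15, adjusted p = 0.167).

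Of 16 glycolysis genes, 12 rose and 0 fell (median 0.30), and 9 to 14 rose with a single library left out. TPI1, the triose phosphate isomerase, had the largest difference, at 351, 362 and 326 FPKM in PBS1 against 192, 170 and 186 FPKM in Ep2 (difference 0.92, SE 0.09, adjusted p = 0.000277). Phosphofructokinase, which sets the pace of the pathway, was higher through PFKL by 0.60 (SE 0.07) and PFKP by 0.56 (SE 0.09). HK1, the hexokinase of most tissues, measured 87.5, 91.6 and 87.1 FPKM against 64.3, 62.9 and 61.4 FPKM. In contrast LDHB, which favours lactate use, was at 161 FPKM in each PBS1 column and at 176, 162 and 159 FPKM in Ep2. GAPDH, often used as a reference gene, was not called either, at 1541, 1587 and 1563 FPKM against 1512, 1473 and 1441 FPKM. LDHB and GAPDH were chosen after their values were seen.

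In the citric acid cycle 7 of 17 genes rose and 2 fell (median 0.15). Those higher included PDHA1, the entry dehydrogenase, by 0.45 (SE 0.06), and MDH2, the malate dehydrogenase, by 0.38 (SE 0.06). Those lower were SUCLA2 and SUCLG2, subunits of succinyl-CoA synthetase, by 0.27 (SE 0.06) and 0.23 (SE 0.06). With the length trend removed 5 rose and 4 fell, with a median of 0.08, and with quantile normalization 4 fell, with a median of 0.06.

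**Figure D2:**
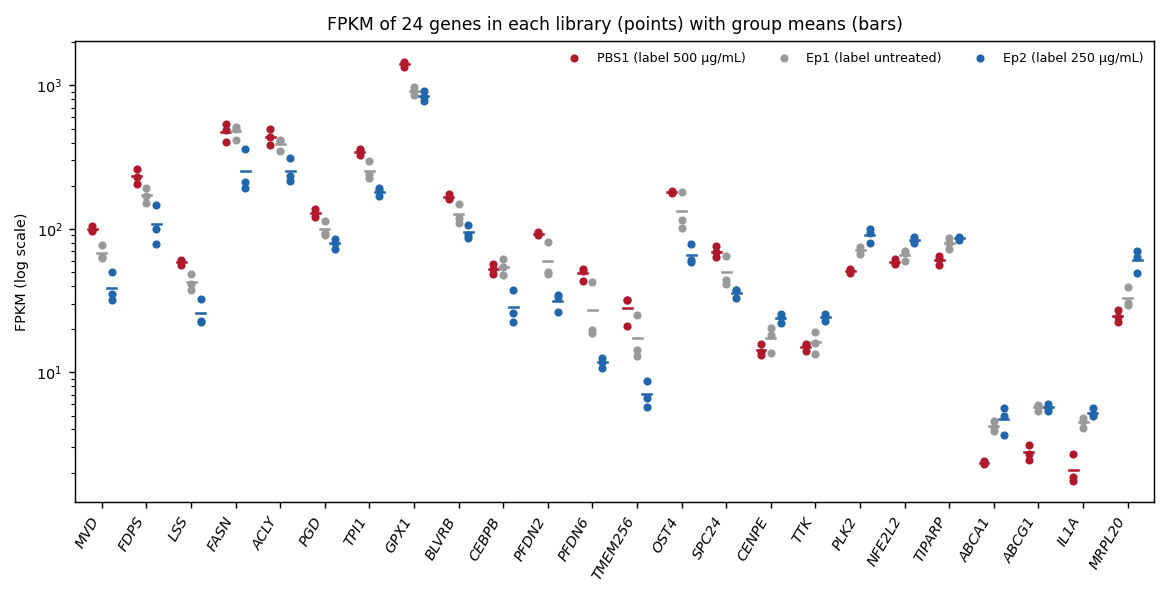
FPKM (log scale) of 24 genes (x axis) in each library (points) with the mean of each group (bars), for PBS1 in red, Ep1 in grey and Ep2 in blue. For MVD the PBS1 points lie at 97.3 to 104 FPKM and the Ep2 points at 31.8 to 50.1 FPKM; PLK2, ABCA1, ABCG1, IL1A and MRPL20 are reversed, with Ep2 on top.

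Genes of the xenobiotic and oxidative responses moved in both directions, as did all tested genes (25.4% higher and 24.2% lower). Of 5 measured genes of the aryl hydrocarbon receptor pathway, 3 fell in PBS1 and 1 rose. TIPARP, a target gene that feeds back on the receptor, measured 55.6, 61.9 and 65.1 FPKM in PBS1 against 83.8, 87.3 and 86.2 FPKM in Ep2 (difference -0.49, SE 0.08, adjusted p = 0.00082). PTGES3, a co-chaperone of the receptor complex, fell by 0.19 (SE 0.05). Without Ep2_2 the count of higher members was 0 by limma. The fall of AHR itself, by 0.29 (SE 0.10), was lost without any of 3 libraries, at an adjusted p of up to 0.114 without Ep2_2.

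Of 12 genes of the NRF2 response, 5 rose and 1 fell (median 0.15). The 1 that fell was NFE2L2, which encodes NRF2 itself, from 79.8, 82.2 and 87.4 FPKM in Ep2 to 57.5, 56.9 and 62.0 FPKM in PBS1 (difference -0.49, SE 0.07, adjusted p = 0.000624). KEAP1, the adaptor through which NRF2 is degraded, differed in the opposite direction, by 0.39 (SE 0.07), with 78.1, 78.1 and 72.0 FPKM against 59.3, 55.2 and 58.6 FPKM. MAFG, the DNA-binding partner of NRF2, rose by 0.59 (SE 0.09). Among targets, GCLC, GCLM and SLC7A11, which supply glutathione, were not called, with differences of -0.02, 0.08 and 0.01, and TXN, thioredoxin, rose by 0.24 (SE 0.05). With quantile normalization 3 members rose and 2 fell, and the median was 0.09.

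Among 11 genes that remove peroxide and superoxide, 4 rose and 2 fell (1 without column PBS2). GPX1, the main cytosolic glutathione peroxidase, measured 1446, 1465 and 1335 FPKM in PBS1 against 919, 782 and 834 FPKM in Ep2 (difference 0.75, SE 0.07, adjusted p = 0.000244). The peroxiredoxins PRDX5, PRDX6 and PRDX2 rose by 0.64 (SE 0.10), 0.37 (SE 0.06) and 0.33 (SE 0.08). GPX8, a peroxidase of the endoplasmic reticulum, was lower, with 40.2, 36.1 and 40.5 FPKM against 54.4, 54.7 and 58.6 FPKM. The groups did not overlap for either peroxidase, and their directions were opposite. Such separation was common, since 60.3% of tested genes did not overlap between PBS1 and Ep2.

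Of 12 iron and haem genes, 5 rose and 3 fell (median 0.10, and -0.01 with quantile normalization or with at least 5 FPKM required). The ferritin chains, which store iron together, parted: the light chain gene FTL, the most abundant gene of the comparison, measured 4873, 5138 and 5315 FPKM in PBS1 against 4589, 3890 and 3896 FPKM in Ep2 (difference 0.31, SE 0.08), and the heavy chain gene FTH1 measured 502, 533 and 513 FPKM against 604, 600 and 567 FPKM (difference -0.19, SE 0.05). NCOA4, the receptor that takes ferritin to autophagy, fell by 0.40 (SE 0.07). BLVRB, a flavin and biliverdin reductase, rose by 0.82 (SE 0.11), from 106, 86.8 and 90.8 FPKM to 165, 174 and 162 FPKM, and BLVRA, its counterpart in bilirubin formation, by 0.37 (SE 0.07). Ferritin genes have many processed copies in mammals, and the sources used here do not say how shared reads were counted.

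Of 14 genes of oxygen sensing, 6 rose and 3 fell (median 0.04, and 0.01 to 0.10 with a single library left out). Paired genes differed in direction: HIF1A, the oxygen-regulated factor of most cells, fell from 139, 127 and 126 FPKM in Ep2 to 87.9, 91.1 and 105 FPKM in PBS1 (difference -0.46, SE 0.09, adjusted p = 0.00172), and its paralog EPAS1 rose by 0.28 (SE 0.06). Of the prolyl hydroxylases that mark these factors, EGLN1 fell by 0.30 (SE 0.08) and EGLN2 rose by 0.48 (SE 0.09). EGLN3, another of them and itself a target of these factors, fell by 0.15 (SE 0.06, adjusted p = 0.0483), a call that was lost in 6 of the 9 fits without a single library. The other known targets in the list were mixed. CA9, a carbonic anhydrase, was higher, at 104, 112 and 101 FPKM against 79.1, 66.2 and 73.7 FPKM, and VEGFA and BNIP3 differed by 0.56 each (SE 0.10 and 0.08). NDRG1, SLC2A1, ANKRD37 and P4HA1 were not called, with differences of 0.06, 0.02, -0.09 and -0.13.

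Stress pathways showed both directions as well, beside shares of 25.4% higher and 24.2% lower over all tested genes. In the integrated stress response 8 of 21 genes rose and 3 fell (median 0.06, and -0.01 to 0.14 with a single library left out). CEBPB, a factor that works with ATF4, measured 48.8, 57.4 and 52.4 FPKM in PBS1 against 37.2, 25.9 and 22.4 FPKM in Ep2 (difference 0.90, SE 0.16, adjusted p = 0.00128). PHGDH, the first enzyme of serine synthesis, rose by 0.57 (SE 0.08), DDIT4, an inhibitor of mTORC1 signalling, by 0.60 (SE 0.15) and PPP1R15A, which ends the response, by 0.48 (SE 0.09). ASNS, the asparagine synthetase and an ATF4 target, fell by 0.25 (SE 0.06), and DDIT3, the factor CHOP, was not called (difference -0.15, adjusted p = 0.123).

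In the unfolded protein response of the endoplasmic reticulum 7 of 20 genes rose and 5 fell, and 2 fell without column PBS1, column PBS2 or Ep2_3. The median was -0.05, but -0.03 without column PBS3 or Ep2_3, and 0.01 with the length trend removed. The small chaperone partners CRELD2, SDF2L1 and MANF rose by 0.74 (SE 0.13), 0.48 (SE 0.06) and 0.39 (SE 0.07). The DnaJ proteins of the same compartment, DNAJB9 and DNAJC3, fell by 0.47 (SE 0.10) and 0.31 (SE 0.08). XBP1, a main factor of the response, was not called, at 52.4, 48.1 and 46.9 FPKM against 49.4, 49.8 and 58.0 FPKM.

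Of 14 heat shock genes, 5 rose and 4 fell (3 rose without column PBS2, and 2 under quantile normalization). HSPB1, a small heat shock protein that binds unfolding proteins, measured 593, 643 and 667 FPKM in PBS1 against 460, 321 and 330 FPKM in Ep2 (difference 0.79, SE 0.12, adjusted p = 0.000693). HSPA8, the constitutive HSP70, was lower, at 1004, 945 and 905 FPKM against 1197, 1413 and 1464 FPKM (difference -0.51, SE 0.08), as were its exchange factors HSPA4 and HSPH1, by 0.30 (SE 0.06) and 0.26 (SE 0.06). Ep1 values of HSPA8, at 893, 1032 and 981 FPKM, stood with PBS1.

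Among the chaperones that fold new actin and tubulin, subunits of the CCT ring changed in both directions. No prefoldin subunit was called lower in the full fit. The list of prefoldin, which hands these proteins over, and of prefoldin-like proteins had 4 of 8 genes higher and 1 lower (2 lower with the length trend removed or with quantile normalization). PFDN6 held the largest difference among named genes with at least 5 FPKM and no overlap: 52.5, 51.2 and 43.6 FPKM in PBS1 against 12.6, 11.8 and 10.7 FPKM in Ep2 (difference 1.97, SE 0.24, adjusted p = 0.000392). PFDN2 measured 92.8, 94.5 and 90.7 FPKM against 33.4, 26.3 and 34.9 FPKM, and PFDN5 rose by 0.36 (SE 0.10). The 1 lower member was URI1, a prefoldin-like protein of a nuclear complex, which fell by 0.39 (SE 0.08). In the CCT ring, which receives the substrates, 3 of 8 subunits rose and 4 fell. CCT4 measured 359, 346 and 346 FPKM in PBS1 against 473, 471 and 460 FPKM in Ep2 (difference -0.42, SE 0.06), CCT2 and CCT6A fell by 0.27 and 0.23 (SE 0.05 each), and CCT7 and CCT5 rose by 0.27 and 0.21 (SE 0.06 each).

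Among 17 p53 target genes, 5 rose and 6 fell (median -0.13), with 3 higher without column PBS2, without Ep2_3 or with the length trend removed, where the median was -0.06. BBC3, which promotes death by mitochondria, measured 23.9, 22.3 and 21.1 FPKM in PBS1 against 15.2, 7.93 and 10.04 FPKM in Ep2 (adjusted p = 0.00261), and BAX, which opens their outer membrane, differed by 0.72 (SE 0.09). PHLDA3, an inhibitor of AKT signalling, rose by 0.69 (SE 0.10). ZMAT3, an RNA-binding target, and TIGAR, a phosphatase that diverts sugar to the pentose phosphate pathway, fell by 0.44 (SE 0.10) and 0.36 (SE 0.07). Of 17 genes of the BCL2 and caspase families, 4 rose and 4 fell (23.5% each, against 25.4% and 24.2% over all tested genes). The death-promoting BAD rose by 0.79 (SE 0.13) and the protective BCL2L1 by 0.30 (SE 0.07). The death-promoting APAF1, the scaffold of the apoptosome, and DIABLO, which binds caspase inhibitors, fell by 0.39 (SE 0.10) and 0.29 (SE 0.07), and XIAP, an inhibitor of caspases, by 0.26 (SE 0.07).

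Inflammatory genes changed in both directions, which was also so over all tested genes (25.4% higher and 24.2% lower). Their mix of directions is thus no trait of this group. IL1A, an epithelial alarm cytokine, measured 1.85, 1.75 and 2.68 FPKM in PBS1 against 4.95, 5.64 and 5.10 FPKM in Ep2 (difference -1.02, SE 0.12, adjusted p = 0.000358). Downstream of its receptor, the kinase gene IRAK4 fell by 0.36 (SE 0.08) and IRAK1 rose by 0.39 (SE 0.06). Of 7 tested genes of interleukin-1 signalling, 1 rose (2 without Ep2_1) and 2 fell. CXCL16, a membrane-bound chemokine, was lower, at 34.1, 37.2 and 33.6 FPKM against 53.6, 63.2 and 73.9 FPKM. Of 16 listed cytokines, 4 passed the filter and 0 were called by limma or limma voom; 1 was lower at an unadjusted p under 0.05, and called lower without column PBS2, without Ep1_2, with the length trend removed, with quantile normalization, without the intensity trend, with a pseudocount of 0.1 or with no filter on low values. Of 14 NF-κB genes, 4 rose and 4 fell. These counts rested on single libraries: 1 rose without column PBS1 or PBS2, 2 rose without Ep2_2 or Ep2_3, and 1 fell without column PBS2 or Ep2_2.

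Of 13 interferon response genes, 4 rose and 5 fell (3 fell without column PBS2, column PBS3 or Ep2_2, and with the length trend removed). ISG15, a ubiquitin-like protein of the response, measured 7.18, 7.94 and 6.67 FPKM in PBS1 against 3.70, 2.64 and 2.84 FPKM in Ep2 (difference 1.03, SE 0.20). IRF3 rose by 0.50 (SE 0.12) and TYK2, a receptor-bound kinase, by 0.50 (SE 0.10), whereas the receptor gene IFNAR1 fell by 0.53 (SE 0.09). MNDA, a nuclear protein known from myeloid cells and interferon responses, fell from 24.9, 26.0 and 25.0 FPKM in Ep2 to 13.1, 14.9 and 13.7 FPKM in PBS1 (difference -0.82, SE 0.10). The leukocyte marker sums given above overlapped between the groups.

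Of 16 immediate early genes, 7 rose and 2 fell (4 rose without column PBS1, column PBS2 or Ep2_3). The AP-1 subunit gene JUNB measured 115, 119 and 114 FPKM in PBS1 against 83.1, 79.9 and 76.7 FPKM in Ep2 (difference 0.53, SE 0.09), and IER2 differed by 0.56 (SE 0.10). ATF3, a stress-induced repressor, was lower, at 25.1, 26.8 and 28.6 FPKM against 40.6, 35.2 and 41.7 FPKM. PLK2, a polo-like kinase induced by stress and serum, measured 52.5, 49.1 and 51.7 FPKM in PBS1 against 79.6, 99.1 and 93.2 FPKM in Ep2 (difference -0.81, SE 0.08, adjusted p = 0.000277).

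In the TGF-β pathway 3 of 14 genes rose and 6 fell, with 3 lower without column PBS2, without Ep2_2 or Ep2_3, or with the length trend removed. The inhibitory SMAD6 and SMAD7 rose by 0.44 (SE 0.07) and 0.51 (SE 0.10), and the signal-carrying SMAD2 and SMAD4 fell by 0.31 (SE 0.08) and 0.37 (SE 0.07). The corepressors SKI and SKIL, close relatives, went in opposite directions, by 0.52 (SE 0.07) and -0.45 (SE 0.08). In the Hippo pathway 3 of 17 rose and 6 fell. The kinases STK3 and LATS1 and the adaptor SAV1 fell by 0.57 (SE 0.07), 0.39 (SE 0.08) and 0.30 (SE 0.07), while the upstream NF2 rose by 0.39 (SE 0.06) and the DNA-binding TEAD2 by 0.46 (SE 0.06). With the length trend removed, 5 Hippo genes rose and 5 fell.

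Of 22 actin genes, 12 rose and 3 fell in PBS1 (median 0.26), with 11 to 12 higher over the fits without a single library and 5 lower with the length trend removed. TMSB10, which binds actin monomers, measured 794, 816 and 761 FPKM in PBS1 against 404, 410 and 422 FPKM in Ep2 (difference 0.94, SE 0.12, adjusted p = 0.000453). The myosin light chains MYL6 and MYL9 rose by 0.78 (SE 0.12) and 0.63 (SE 0.09), and TAGLN2, an actin cross-linker, by 0.63 (SE 0.10). PFN1, profilin, which also binds actin monomers, was lower, at 881, 853 and 784 FPKM against 972, 1081 and 1058 FPKM, and VCL, which links actin to adhesions, fell by 0.20 (SE 0.05). Actin itself was not called: ACTG1, among the most abundant genes, measured 3342, 3248 and 3076 FPKM against 3512, 3540 and 3485 FPKM. VIM, an intermediate filament of mesenchymal and cultured cells, fell by 0.34 (SE 0.05) from a mean of 2293 FPKM, whereas the epithelial keratins KRT19 and KRT8 rose by 0.64 (SE 0.09) and 0.36 (SE 0.09). Of 4 tested keratins, 2 rose and 0 fell.

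Of 19 matrix and integrin genes, 8 rose, 2 fell (1 without column PBS1, column PBS2 or Ep2_2) and 9 were not called, with a median of 0.12. The 4 members with the largest differences encode basement membrane subunits: COL4A1 measured 37.5, 42.4 and 40.0 FPKM in PBS1 against 27.4, 23.3 and 21.6 FPKM in Ep2 (difference 0.71, SE 0.11), its partner COL4A2 rose by 0.45 (SE 0.07), and the laminins LAMA5 and LAMB3 by 0.69 (SE 0.10) and 0.54 (SE 0.09). ITGB1, the beta chain shared by many matrix receptors, was lower, with 231, 228 and 248 FPKM against 290, 291 and 285 FPKM. Of 11 proteases and inhibitors, 6 rose and 1 fell (3 rose without column PBS1 or PBS2). The sheddases differed in direction, with ADAM15 higher by 0.87 (SE 0.12) and ADAM10 lower by 0.22 (SE 0.06). MMP15, a membrane-type metalloprotease, rose by 1.01 (SE 0.20). CAV2 and CAV1, the coat proteins of caveolae, fell by 0.70 (SE 0.07) and 0.39 (SE 0.06); CAV2 measured 40.9, 42.0 and 46.2 FPKM against 68.0, 72.8 and 70.1 FPKM.

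Mitotic genes leaned lower in PBS1. Of 30, 16 fell and 5 rose, with a median of -0.22, and 14 to 16 fell with a single library left out. CENPE, the kinesin that aligns chromosomes, measured 13.8, 13.2 and 15.6 FPKM in PBS1 against 22.2, 25.6 and 24.2 FPKM in Ep2 (difference -0.71, SE 0.12, adjusted p = 0.00124). TTK, the spindle checkpoint kinase, fell by 0.65 (SE 0.11) and the kinetochore scaffold CASC5 by 0.58 (SE 0.10). Within 1 complex the signs differed: SPC25, a subunit of the NDC80 complex, measured 27.7, 31.0 and 33.3 FPKM against 48.2, 43.5 and 44.8 FPKM, whereas its direct partner SPC24 measured 68.8, 75.7 and 63.9 FPKM against 37.4, 32.8 and 37.3 FPKM. The chromosomal passenger genes BIRC5, INCENP and AURKB rose by 0.57 (SE 0.07), 0.43 (SE 0.07) and 0.31 (SE 0.08). Of 19 centrosome genes, 9 fell and 1 rose (median -0.25, and -0.16 without column PBS2 or with a pseudocount of 5). AKAP9, SASS6 and CEP135, which build centrioles or scaffold centrosomes, had differences of -0.54 (SE 0.11), -0.53 (SE 0.10) and -0.51 (SE 0.11), and CEP164, of the centriole's distal appendages, rose by 0.34 (SE 0.09).

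Of 22 cyclins, their kinases and inhibitors, 7 fell and 4 rose. CCNE2, a cyclin of S-phase entry, measured 9.67, 9.86 and 8.57 FPKM in PBS1 against 12.8, 16.8 and 16.0 FPKM in Ep2 (difference -0.64, SE 0.10), and CCNA2, of S and G2 phase, fell by 0.35 (SE 0.06). The D-type cyclin CCND3 rose by 0.66 (SE 0.10), the S-phase factor E2F1 by 0.40 (SE 0.07) and the inhibitor CDKN1B by 0.47 (SE 0.07). Of 41 DNA replication genes, 13 fell and 5 rose (9 rose without column PBS3). Their median was -0.07, but -0.13 without Ep2_1, and -0.04 to -0.03 without column PBS2 or PBS3 or without Ep2_2 or Ep2_3.

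The translation apparatus did not move as a block. Of 42 tested genes of the large ribosomal subunit, 23 rose and 6 fell (3 fell without column PBS1), with a median of 0.28. RPL11 measured 97.9, 102 and 87.2 FPKM in PBS1 against 31.2, 30.3 and 37.8 FPKM in Ep2 (difference 1.51, SE 0.17, adjusted p = 0.000317). RPL36 differed by 1.12 (SE 0.13) at a mean of 1067 FPKM against 492 FPKM, RPL35A by 0.89 (SE 0.10) and RPL36A by 0.85 (SE 0.11). RPL19 was lower, at 568, 565 and 559 FPKM against 782, 715 and 798 FPKM, and RPL27A fell by 0.25 (SE 0.05). RPL39, chosen after its values were seen, was not called and varied between libraries of 1 group, with 110, 27.6 and 295 FPKM in Ep2 and 237, 232 and 251 FPKM in PBS1. Ribosomal protein genes have near-identical copies, and how their shared reads were counted is not known, so these values are uncertain.

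Of 29 genes of the small subunit, 10 rose (6 without Ep2_2) and 6 fell, with a median of 0.05 that ranged from 0.01 to 0.08 with a single library left out. RPS14 rose by 1.35 (SE 0.16), and RPS20, RPS3A and RPSA fell by 0.26, 0.26 and 0.21 (SE 0.05 each). RPS20 stood at 1381 FPKM in each Ep2 library and at 1161, 1191 and 1108 FPKM in PBS1. Removal of the length trend left 8 higher and 9 lower, and a median of -0.06.

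Mitochondrial ribosomal genes held changes in both directions, beside 25.4% higher and 24.2% lower over all tested genes. Of 45 of the large subunit, 17 rose and 9 fell, and of 28 of the small subunit, 10 rose and 7 fell. MRPL20 had the largest fall of any named gene that met the same conditions as PFDN6, from 49.2, 63.2 and 70.3 FPKM in Ep2 to 27.3, 22.5 and 24.3 FPKM in PBS1 (difference -1.26, SE 0.14, adjusted p = 0.000299). MRPL27 and MRPL14 rose by 0.81 (SE 0.08) and 0.69 (SE 0.07). In the small subunit MRPS12 rose by 1.04 (SE 0.09) and MRPS25 by 0.83 (SE 0.12), while MRPS18C was lower, with 23.2, 19.9 and 23.6 FPKM against 39.7, 43.7 and 47.9 FPKM.

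Of 48 translation initiation genes, 17 fell and 8 rose (median -0.12, and -0.08 without column PBS2). EIF2A, an alternative carrier of initiator tRNA, measured 62.0, 62.0 and 62.3 FPKM in PBS1 against 84.8, 93.4 and 96.2 FPKM in Ep2 (difference -0.55, SE 0.07, adjusted p = 0.000481). EIF5, which triggers start codon recognition, and EIF2S2, the beta subunit of eIF2, fell by 0.50 (SE 0.10) and 0.43 (SE 0.06). EIF4EBP1, which blocks cap binding, rose by 0.68 (SE 0.12), and EIF3G, a subunit of the scanning complex, by 0.56 (SE 0.11). Of 27 ribosome biogenesis genes, 11 rose and 6 fell. NCL, nucleolin, rose by 0.79 (SE 0.14), whereas NPM1, also abundant in the nucleolus, was lower, with 863, 857 and 812 FPKM against 1013, 1139 and 1216 FPKM.

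In the respiratory chain, 17 of 38 complex I genes rose and 6 fell (median 0.16). NDUFA6 measured 86.3, 90.7 and 88.5 FPKM in PBS1 against 51.2, 46.8 and 54.3 FPKM in Ep2 (difference 0.79, SE 0.08, adjusted p = 0.000289), and the accessory subunits NDUFB7 and NDUFA11 rose by 0.83 (SE 0.16) and 0.80 (SE 0.11). Those lower included the core subunits NDUFS1 and NDUFV2, by 0.26 (SE 0.07) and 0.22 (SE 0.06). The accessory subunits NDUFV3, which had the largest fall called in this list, and NDUFA9 were lower too. With the length trend removed, or with quantile normalization, 10 fell, and the median was 0.10 with the trend removed. Of 13 ATP synthase genes, 7 rose and 2 fell (1 without Ep2_3). The 3 genes of the membrane ring's c subunit, ATP5G1, ATP5G2 and ATP5G3, rose together by 0.61 (SE 0.10), 0.71 (SE 0.10) and 0.53 (SE 0.08). Of 14 genes of mitochondrial protein import, 9 rose and 2 fell (median 0.27). With the length trend removed 8 rose and 2 fell (median 0.23). Of the 3 members longer than 2000 bases, 1 rose and 1 fell, with a median of 0.06. TOMM40, the pore of the outer membrane, measured 130, 121 and 110 FPKM against 64.0, 73.0 and 68.6 FPKM. The small TIM chaperone TIMM13 rose by 0.85 (SE 0.13), and TIMM9, another of these chaperones, fell by 0.65 (SE 0.11). Of 10 genes that maintain and express mitochondrial DNA, 3 rose and 4 fell. The polymerase POLG rose by 0.69 (SE 0.09) and the packaging factor TFAM fell by 0.35 (SE 0.08). The 13 genes encoded by mitochondrial DNA did not pass the filter. Whether this reflects their RNA level or how reads were mapped and counted was not tested.

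In the ubiquitin system, 18 of 45 ubiquitin-specific proteases (USP) fell and 4 rose (median -0.17), with 2 higher without column PBS1, column PBS2 or Ep2_3. With the length trend removed 18 fell and 5 rose, but the median was -0.10, and it was -0.11 with a pseudocount of 5. USP16, which removes ubiquitin from histone H2A, measured 44.8, 45.6 and 47.1 FPKM in PBS1 against 62.5, 69.6 and 72.8 FPKM in Ep2 (difference -0.56, SE 0.08, adjusted p = 0.000481). USP25, USP34 and USP9X, all long genes, had differences of -0.56 (SE 0.08), -0.54 (SE 0.11) and -0.53 (SE 0.09), and USP5, which recycles free ubiquitin chains, rose by 0.42 (SE 0.08). Of 26 genes of cullin ligases, F-box proteins and their partners, 12 fell and 3 rose (median -0.17). The scaffolds CUL2, CUL3 and CUL4B fell by 0.55 (SE 0.09), 0.47 (SE 0.06) and 0.44 (SE 0.07). CUL3, which joins KEAP1 to mark NRF2, measured 31.7, 33.2 and 33.5 FPKM against 45.7, 46.2 and 45.3 FPKM, opposite in direction to KEAP1. The 3 members higher were the conjugating enzymes UBE2S, UBE2C and UBE2M, by 0.35 (SE 0.07), 0.30 (SE 0.06) and 0.21 (SE 0.06). Of 16 proteasome core genes, 5 rose and 3 fell, and 7 fell with the length trend removed or with quantile normalization.

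Genes of the secretory route changed in both directions, as did all tested genes (25.4% higher and 24.2% lower). A mix of directions alone therefore does not set them apart. Of 11 genes of oligosaccharyl transfer, 4 rose and 4 fell: OST4, a very small subunit, measured 179, 185 and 181 FPKM in PBS1 against 79.1, 58.8 and 60.4 FPKM in Ep2 (difference 1.46, SE 0.18, adjusted p = 0.000396), and RPN2 and the catalytic STT3B fell by 0.24 and 0.21 (SE 0.06 each). OSTC and TUSC3 were the other members called lower. DAD1 of the same complex, chosen after its values were seen, was not called, with 45.4 FPKM in Ep2_1 against 3.45 and 2.56 FPKM in Ep2_2 and Ep2_3. Of 21 translocon genes, 6 rose and 6 fell. SEC61A1 and SEC61B, of the channel, rose by 0.29 (SE 0.05) and 0.39 (SE 0.11), and SEC62, an accessory of the channel, fell by 0.34 (SE 0.08). Of 24 genes of transport between endoplasmic reticulum and Golgi, 8 fell and 2 rose (4 without Ep1_1); SEC24B, a coat protein that selects cargo, fell by 0.60 (SE 0.08). Among 41 RAB GTPases, 13 fell and 9 rose. RAB5C, of early endosomes, measured 67.1, 66.9 and 61.9 FPKM against 29.0, 32.7 and 38.6 FPKM, and RAB10 and RAB27A, of exocytosis, fell by 0.57 (SE 0.08) and 0.52 (SE 0.10). The paralogs RAB1B and RAB1A, which act at the same step, differed by 0.69 (SE 0.09) and -0.36 (SE 0.06); RAB1A was chosen after its values were seen. Of 24 autophagy genes, 6 rose and 6 fell. MAP1LC3A, a membrane mark of autophagosomes, and SQSTM1, a cargo receptor, rose by 0.86 (SE 0.16) and 0.44 (SE 0.08), and ATG12, ATG5 and ATG3, of the conjugation machinery, fell by 0.48 (SE 0.11), 0.35 (SE 0.07) and 0.36 (SE 0.05). VPS26A, a subunit of retromer, fell by 0.70 (SE 0.08).

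**Figure D3:**
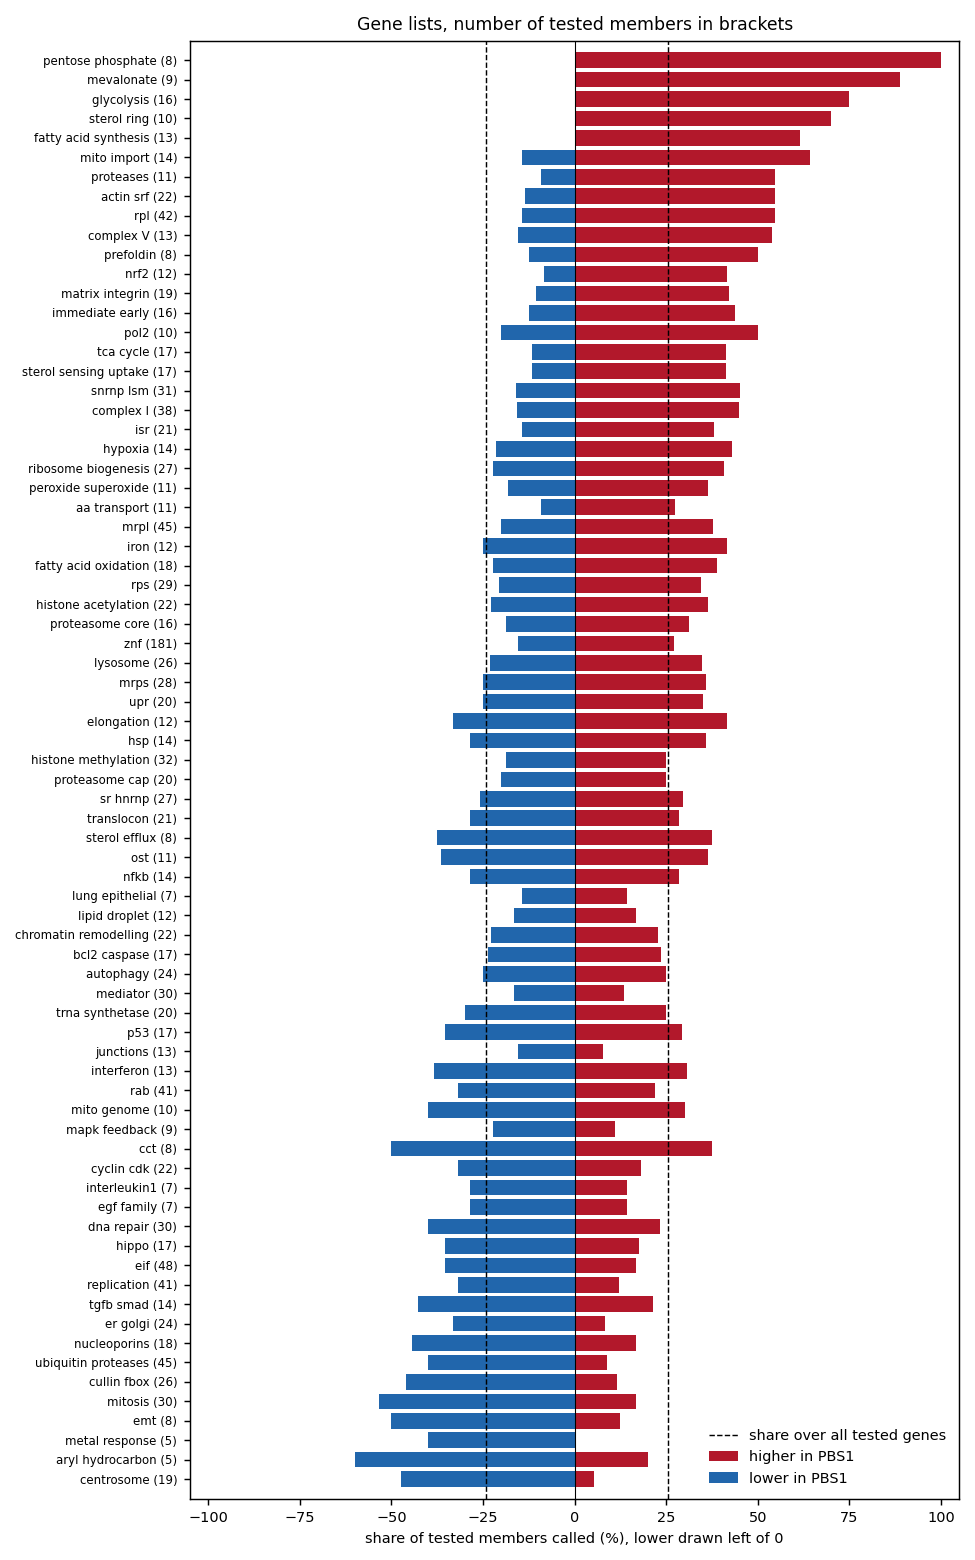
Share of tested members of 74 gene lists (rows, number of tested members in brackets) that were called higher in PBS1 (red, right of 0) or lower (blue, drawn left of 0), ordered by the difference of both shares, with dashed lines at the shares over all tested genes, 25.4% and 24.2%. Pentose phosphate, mevalonate, glycolysis, sterol ring and fatty acid synthesis genes stand at the top with no lower member; centrosome and mitosis genes stand near the bottom.

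Genes of transcription and RNA processing changed in both directions, as all tested genes did (25.4% higher and 24.2% lower). Of 10 RNA polymerase II genes, 5 rose and 2 fell, with a median of 0.30. Both lower calls were lost without column PBS2 or Ep2_2. With the length trend removed 5 rose and 2 fell (median 0.24), but among genes longer than 2000 bases 0 rose and the median was -0.19. The small subunit genes POLR2I and POLR2F rose from a mean of 27.4 and 51.8 FPKM in Ep2, with differences of 1.09 (SE 0.16) and 0.95 (SE 0.15). Of 31 genes of spliceosomal Sm and LSM proteins and their partners, 14 rose and 5 fell. The number that fell was 3 without column PBS2 or Ep2_3 or with no filter on low values, 10 with the length trend removed and 11 with quantile normalization. SNRNP70, of the U1 particle, measured 144, 152 and 142 FPKM against 84.4, 72.0 and 69.9 FPKM (difference 0.95, SE 0.10). LSM7 rose by 1.22 (SE 0.26), while LSM8, of the same nuclear ring, fell by 0.38 (SE 0.08). Among 30 Mediator genes, 4 rose and 5 fell (9 with the length trend removed). In the full fit these shares, 13.33% and 16.67%, were below those of all tested genes. The shorter genes MED11 and MED20 rose by 0.43 and 0.41 (SE 0.08 each), and MED14, the backbone, and MED13, of the kinase module, fell by 0.48 (SE 0.08) and 0.41 (SE 0.09). Of 181 tested zinc finger genes named ZNF, 49 rose (27.07%) and 28 fell (15.47%), against 25.4% and 24.2% over all tested genes.

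Named genes past these lists gave further large differences. The higher ones included CHCHD2, a mitochondrial and nuclear protein of the oxygen response, with 485, 503 and 462 FPKM in PBS1 against 260, 171 and 164 FPKM in Ep2 (difference 1.31, SE 0.18), HYPK, a chaperone of the ribosome exit, by 1.22 (SE 0.14), and INPP5J, a phosphoinositide phosphatase, by 1.56 (SE 0.23). KLF16, a zinc finger repressor, and SAMD11 rose by 1.04 (SE 0.10) and 1.03 (SE 0.09), with no overlap: SAMD11 measured 27.0, 25.6 and 28.5 FPKM against 13.6, 13.4 and 11.4 FPKM. The lower ones included CHMP2B, of the membrane-cutting ESCRT machinery, at -0.74 (SE 0.11), STXBP3, which guides vesicle fusion, at -0.73 (SE 0.12), MASTL, a mitotic kinase, at -0.70 (SE 0.09), and PMS1, a mismatch repair homolog, at -0.72 (SE 0.08). PMS1 measured 14.1, 14.2 and 14.4 FPKM against 21.8, 25.5 and 25.3 FPKM. Of the 158 genes past a log2 difference of 1 in either direction, 105 had no symbol; of those with one, 51 were higher and 2 (IL1A and MRPL20) lower.

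Gene length moved with the direction of the difference. Among the 1110 tested genes of 501 to 1000 bases, 33.3% were higher in PBS1 and 16.8% lower, with a median log2 difference of 0.12. Among the 793 genes longer than 8000 bases, 13.9% were higher and 28.4% lower, with a median of -0.09, and the 3959 genes of 2001 to 4000 bases were balanced at 25.5% and 25.2%. Genes of up to 1000 bases made up 12.9% of tested genes and 109 of the 158 past a log2 difference of 1. In the shortest genes the library medians lay at 0.055 to 0.066 in the PBS1 columns and at -0.098 to -0.035 in the Ep2 libraries. Ep1_1, at 0.091, lay on the side of PBS1, and Ep1_2 and Ep1_3, at -0.055 and -0.043, on the side of Ep2, so libraries labelled alike lay on both sides.

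**Figure D4:**
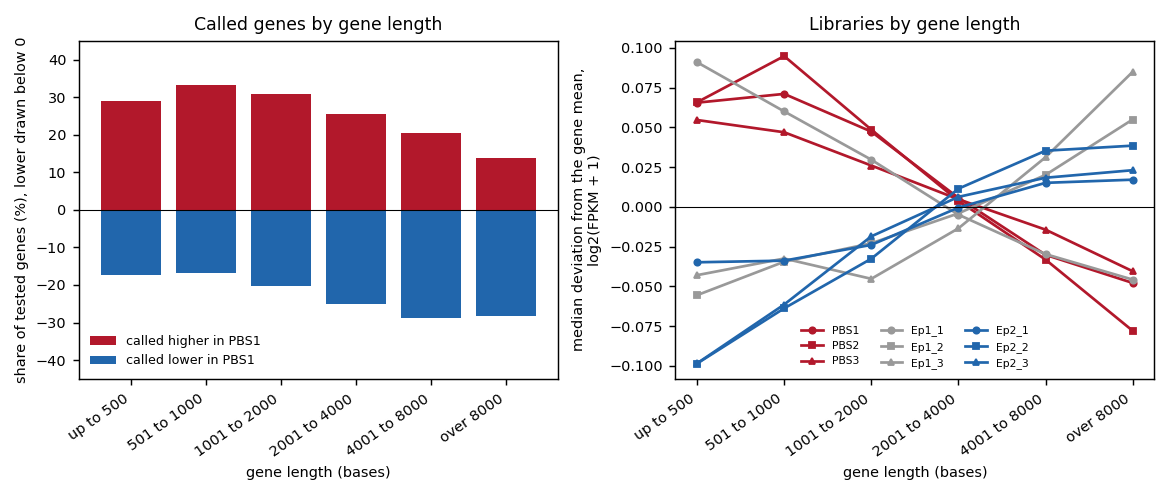
Left, share of tested genes called higher (red) or lower (blue, drawn below 0) in PBS1 by gene length in bases; right, median deviation of log2(FPKM + 1) from the gene mean in each library by gene length. Higher calls exceed lower calls up to 2000 bases and the order turns above 4000 bases; the 3 PBS columns and Ep1_1 slope down, the other libraries slope up.

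After the trend on length was removed, 3084 genes were higher (26%) and 2793 lower (23.6%), 5370 of the 5875 calls stayed with the same direction, and 0 turned. The metabolic groups held: 8 mevalonate, 7 sterol ring, 8 fatty acid synthesis, 8 pentose phosphate and 12 glycolysis genes were higher and 0 of them lower. Mitosis genes had 15 lower and 5 higher, centrosome genes 9 and 1. The large ribosomal subunit changed from 23 higher and 6 lower to 19 and 8, and its median from 0.28 to 0.18. Whether length, or a feature that goes with it, plays a part in single differences was not tested, and GC content was not analysed here.

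**Figure D5:**
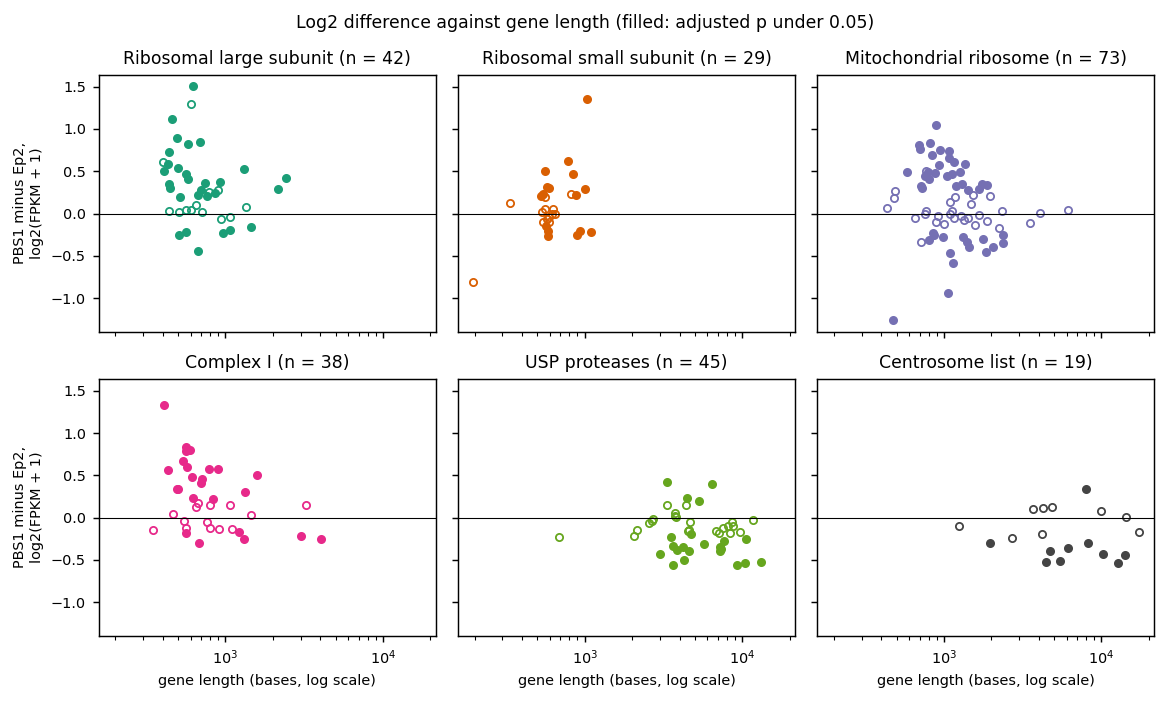
Log2 difference, PBS1 minus Ep2, against gene length (bases, log scale) for 6 gene groups, with a filled point for each gene past an adjusted p of 0.05 in limma and an open point otherwise. Ribosomal and complex I genes are short and lie on both sides of 0, with more filled points above; USP and centrosome genes are long, with more filled points below.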

How the data were processed

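For 9 RNA sequencing libraries the authors deposited FPKM, per the file headers, in a single table. The submitters' processing notes name Bowtie 0.12.2 and the build mm8. That is a build of the mouse genome, yet rows are placed on ferret scaffolds, so coordinates were left out. The sources used here give no counting tool, annotation or strand setting, so values of gene copies and of overlapping or antisense genes are uncertain. Groups follow the treatment label. Columns PBS1, PBS2 and PBS3 match the PBS1 group by their stem and cannot be matched to single titles.

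Fragments per library were recovered from FPKM and gene length: 100% of values above 0 came out whole within 0.02. Genes near 1 FPKM rest on few fragments. Replicates differed beyond sampling noise (chi-square per degree of freedom 2.73 to 10.9), and none was a duplicate.

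The test was a fit of all 9 libraries with limma 3.58.1 (R 4.3.3). It used log2(FPKM + 1), 1 mean per group and a prior variance that follows intensity, for the 11840 genes that reached 1 FPKM in 3 or more libraries. The Benjamini-Hochberg adjustment ran over all of them, with a threshold of 0.05. A list is described by its called members and median, with no set test. The members and the 84 lists were chosen with earlier results of these data known. Named genes were the 15 with the largest differences in each direction (symbol, adjusted p passed, mean of at least 5 FPKM, no overlap between groups), the same among genes longer than 2000 bases, up to 4 called members per list and direction (any member of lists of up to 15), and the 10 most abundant; other names are said to be chosen after their values were seen, as are uncalled members of longer lists and the marker genes named. In simulated data of 11772 genes for this comparison, 33% of genes changed 1.5-fold and 95% of those changed 2-fold were recovered, with 8 false calls among 136. The simulation changed 100 genes by each fold. It gave every gene the same spread beyond sampling noise and held no trend on length. In the real data 49.6% of genes were called, so these rates need not hold there. Alternatives were other pseudocounts, filters, normalizations, gene length settings, voom on fragments, a required fold of 1.2, the replicate number as a block and each library left out. Some single genes are not named; they stayed in all counts.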

Additional observations from a re-analysis of the deposited data

How the results depend on the processing

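The count of 5875 genes called, with 3013 higher and 2862 lower in PBS1, stayed within 1.5 times under other pseudocounts, filters on low values and normalizations, without the intensity trend, with only the 6 libraries compared, with the length trend removed and with voom on recovered fragments. With only genes longer than 2000 bases, 1914 were higher and 2293 lower. That fit held fewer genes, so these counts cannot be set directly against 3013 and 2862. Higher calls made up 45.5% of its 4207 calls, against 51.3% in the full fit. With a fold of at least 1.2 required in the test, 788 genes passed, 561 higher and 227 lower, so that 71.2% of calls were higher against 51.3% without that requirement, and 0 of 74 lists had at least 50% of their tested members called in 1 direction, against 16. Under that test 4 mevalonate, 4 sterol ring, 4 fatty acid synthesis, 1 pentose phosphate and 3 glycolysis genes were higher, and 3 mitosis genes lower. Leaving out 1 library gave 4495 to 6246 calls, 2330 to 3174 higher and 2165 to 3072 lower, and 12 to 18 lists; the lowest values came without column PBS2, and 3910 genes were called in all 9 such fits. With the replicate number as a block, 5831 genes passed (2995 higher and 2836 lower, 16 lists). With the block GGPS1 was called lower, as 1 of the mevalonate genes, and 1 gene of sterol sensing and uptake was lower, against 2 without it. No pairing by number was seen: deviations of same-numbered columns from their group means correlated at -0.15, -0.04 and -0.07. This check cannot exclude a shared culture or day, because the PBS columns cannot be tied to single titles. Of 703 named genes, 558 were called, and 95 of these lost the call without some library; 0 reversed with a call under any alternative. Precision is limited by 3 libraries per group and, for low genes, by depth.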
